A study of Mus musculus with 10 samples.

Results

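Collagens and other genes of the extracellular matrix were examined in N6-methyladenosine (m6A) peak lists from mouse 3T3-L1 cells. The members are 55 named genes, 17 collagens and 38 other matrix genes, out of 21924 protein-coding genes of the annotation. A peak was counted for a gene when both of its ends lay in exons of 1 transcript of that gene, on its strand (GRCm38, also called mm10). By this rule the members held 110 of 2824 peaks in DMSO Pre, 83 of 5128 in DMSO MCE, 118 of 2944 in DMSO Diff, 80 of 3069 in rhein MCE and 79 of 3071 in rhein Diff.

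3T3-L1 is an established fibroblast line of mouse embryo that turns into fat cells when given a hormone mixture after reaching confluence. The libraries were made by m6A immunoprecipitation of fragmented RNA followed by sequencing (MeRIP-seq), 10 in all, with 1 precipitated and 1 input library for each of 5 conditions. The DMSO vehicle groups were preadipocytes before induction (Pre), cells in mitotic clonal expansion (MCE) and cells labelled as mature adipocytes (Diff). The rhein groups, given 20 μM of this plant anthraquinone from day 0 to day 3, were taken at MCE and Diff. The same days, with 0 μM rhein, are recorded for every DMSO group. For Pre this does not match cells taken before induction. No condition had a replicate, so nothing here was tested and the intervals given (95% Wilson) cover counting error over peaks or genes only. The depth of the libraries is unknown from the peak lists, and since they give no mRNA level the labelled cell types could not be checked against marker genes.

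The rhein lists could not be treated as separate measurements. Of the member peaks, 78 had identical start and end in rhein MCE and rhein Diff, and 72 of these 78 had scores within 0.02 of each other. By comparison, DMSO Pre and DMSO MCE shared 4 identical member spans, DMSO MCE and DMSO Diff 3, and DMSO MCE and rhein MCE 0. The exceptions were in Fbln2, where a span began at chr6:91212755 in both lists and ended at 91233116 in rhein MCE and at 91233066 in rhein Diff, and in Mmp2, where chr8:92827391-92827490 was listed in rhein MCE only. The pair was therefore counted as 1 sample, given below as the rhein list with the values of rhein MCE, which leaves 4 distinct lists.

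Fibroblasts secrete fibrillar collagens that are hydroxylated in the endoplasmic reticulum, trimmed outside the cell and crosslinked by lysyl oxidases. During conversion to fat cells this fibrillar matrix is remodelled by proteases, and a basement membrane of type IV collagen, laminin, nidogen and perlecan is laid down around each cell. m6A is deposited on adenosines within a short consensus, often GGAC, and in mRNA it is most frequent near the stop codon and in long exons. Collagen genes are unusual for this comparison because their triple helix is encoded by many short exons.

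A few stretches recurred in every list, and their sequences are printed because they are the member sites that the 4 distinct lists hold in common. Member peaks that shared exonic bases merged into 215 loci, of which 134 were in 1 list, 40 in 2, 24 in 3 and 17 in all 4. No such count is given here for all peaks, so whether members differ from them in this is not shown. Of these 17 loci, 3 were in collagens, namely Col18a1, Col5a2 and Col6a1. In 16 of the 17 some bases were common to all 4 lists, and in 10 of these the common bases held GGAC. The 25 transcript bases around 1 such GGAC are given for each, 5′ to 3′, with the motif in capitals.
Col6a1, CDS in the last exon, chr10:76709709-76709733, minus strand: ggtggtggtgGGACcccaggtgaac
Col18a1, CDS across an exon junction, chr10:77072057-77072960 with the intron left out, minus strand: cgggtcgccgGGACtcaagggggat
Nid1, CDS, chr13:13468311-13468335, plus strand: atgtgaacctGGACctggacgacga
Lamc1, CDS, chr1:153221558-153221582, minus strand: actataaccgGGACatagcagagat
Emilin1, CDS, chr5:30917700-30917724, plus strand: ctggcctggaGGACcagggaggctg
Thbs2, 5′ UTR, chr17:14694005-14694029, minus strand: gtccccctcaGGACagacagagtac
Loxl1, CDS, chr9:58312165-58312189, minus strand: cgcgttacgaGGACtacggaggtgg
Adamts1, CDS, chr16:85795635-85795659, minus strand: agacattaacGGACaccctgcttcc
Mmp2, 5′ UTR, chr8:92827557-92827581, plus strand: ccagccgggcGGACcccagggcaca
Bmp1, 3′ UTR of a long transcript with a short CDS, chr14:70474947-70474971, minus strand: caagggacttGGACtccctgtaagc
The sequences were read from the mm10 genome. A GGAC in a peak is a match of 4 letters on the transcript strand and not a mapped methylated base. Of the 391 member peaks in the 4 distinct lists, 234 held GGAC (59.8%, 54.9 to 64.6), and 55.3% of all windows of the same lengths on the same transcripts held it. The shares were 64.2% (55.3 to 72.2) beside 62.3% for collagens and 57.9% (52.0 to 63.7) beside 52.2% for the other matrix genes. Each of these intervals included the share of the windows. A site found in several lists enters these pooled counts more than once, so the intervals are too narrow.

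Between 27 and 29 of the 55 members carried a peak in each list, and the share was above that of protein-coding genes in general. The members were chosen with earlier results of these data known, so their share does not stand for matrix genes at large. In 59 further matrix genes, described below, it was 13.6, 22.0, 18.6 and 11.9% in DMSO Pre, DMSO MCE, DMSO Diff and the rhein list. In DMSO Pre 28 of 55 members had an exonic peak (50.9%, 38.1 to 63.6), beside 6.89% of all protein-coding genes. DMSO MCE had 29 members (52.7%) beside 12.5%, and DMSO Diff had 28 (50.9%) beside 6.69%. The rhein list had 27 (49.1%) beside 7.44%, or 7.45% in rhein Diff. Members are long, with a median of 5206 exonic bases against 2714 for all protein-coding genes. Among the 49 members of at least 3000 exonic bases, 57.1, 53.1, 55.1 and 51.0% had a peak in the same order of lists, beside 11.1, 18.4, 10.5 and 11.1% of all 9681 genes of that length. Per 10 kb of exonic sequence the members held 3.59, 2.71, 3.85 and 2.61 peaks and all protein-coding genes 0.352, 0.660, 0.359 and 0.383. The amount of each mRNA was not measured in these lists and its part in the difference was not tested. For the same reason, a gene without a listed peak may lack methylation or may lack reads, and in bulk RNA fewer cells with a transcript and less of it per cell cannot be told apart.

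Across the DMSO stages the collagens ran against the length of the lists. The whole list was longest at MCE, whereas the 15 collagen peaks found there were the fewest of any list. DMSO Pre had 36 collagen peaks, DMSO Diff 47 and the rhein list 22. Peaks in the other matrix genes numbered 74 in DMSO Pre, 68 at MCE, 71 in DMSO Diff and 58 under rhein. From DMSO Pre to DMSO MCE, 9 of the 12 collagens with a peak in either list had fewer peaks and 1 had more, while of 3163 protein-coding genes with a peak in either list 626 (19.8%) had fewer and 2071 (65.5%) had more. From DMSO MCE to DMSO Diff, 8 of 11 collagens had more peaks and 1 had fewer, against 566 (18.2%) and 2046 (65.9%) of 3104 protein-coding genes. When each list was reduced to its 2824 highest-scoring peaks, the collagens had 36, 11, 46 and 20. Among peaks with an adjusted p-value below 0.001 by the score they had 18, 7, 22 and 10, so the order of the lists did not change in either case.

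**Figure D1:**
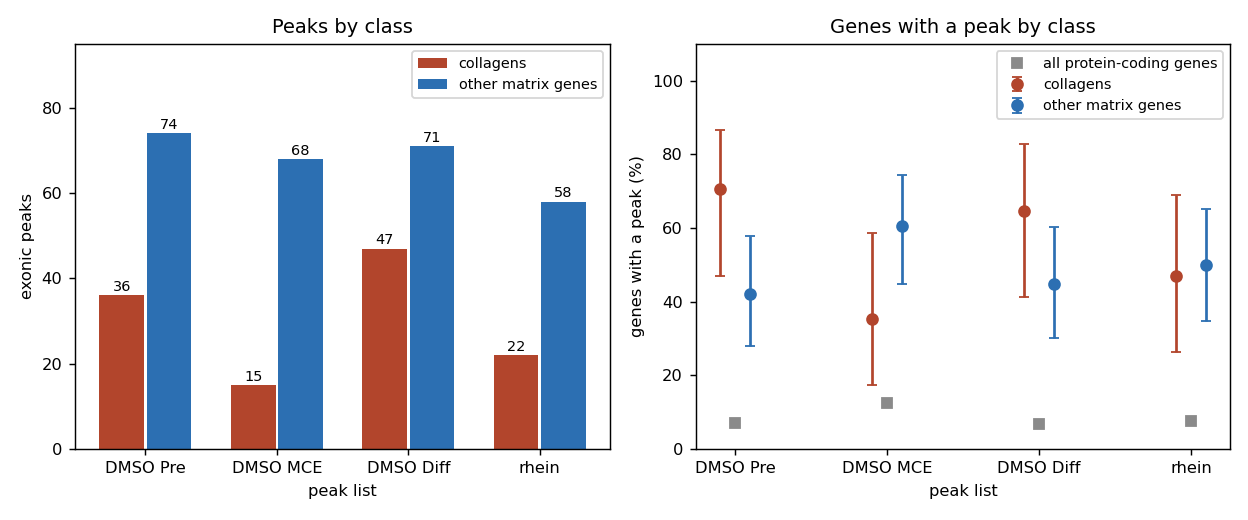
Left, exonic peaks (count) in 17 collagens (red) and 38 other matrix genes (blue) in each of the 4 distinct lists. Right, percent of the genes of each class with at least 1 peak, with 95% Wilson intervals, and of all protein-coding genes (grey squares). Collagen peaks were fewest in DMSO MCE (15) and most numerous in DMSO Diff (47), while the other matrix genes stayed between 58 and 74.

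Fibrillar collagens, the rope-like types I, III, V and XI, held 11, 4, 9 and 8 peaks in the lists DMSO Pre, DMSO MCE, DMSO Diff and rhein, an order kept below wherever 4 values stand together. Both chains of type I collagen, the main fibre of connective tissue, had peaks in preadipocytes only among the 4 lists. Col1a1 had 2 peaks there, both in the 3′ UTR and with scores of 6.58 and 8.19. Col1a2 had 4, of which 3 lay in the 3′ UTR with scores of 86.4, 40.1 and 19.5 and 1 in the 5′ UTR with a score of 13.1. Beside its width, a peak carries this score as its only measure of strength. The column is headed as a log2 fold change, which its values cannot be, and it was taken as a negative log2 of the adjusted p-value, inferred from its lowest values alone. The highest of these, at chr6:4540676-4540725, ranked 10 of the 2824 peaks of DMSO Pre. Col3a1, the partner of type I in elastic tissues, had 1 peak in each DMSO list, all at the same place in the 3′ UTR, and 0 under rhein. Type V collagen sets the diameter of collagen fibres, and its chains differed. Col5a1 had 2, 2, 5 and 1 peaks and Col5a2 had 2, 1, 1 and 1. Col5a3 had 0, 0, 2 and 6, which made it the fibrillar gene with most peaks under rhein. All 8 of the Col5a3 peaks covered 2 to 4 exons. Col11a1 had none in any list.

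The other collagens held 25, 11, 38 and 14 peaks, and most of these were in type VI and type XVIII. Type VI collagen forms beaded microfibrils around cells, and each of its 3 chains had fewer peaks in DMSO MCE than in DMSO Pre or DMSO Diff. Col6a1 had 3, 2, 5 and 1 peaks, Col6a2 had 5, 1, 11 and 5, and Col6a3 had 10, 0, 5 and 1. By number of peaks Col6a3 ranked 4 among all protein-coding genes in DMSO Pre and Col6a2 ranked 6 in DMSO Diff. The highest-scoring member peak of DMSO Diff lay in Col6a1 at chr10:76715271-76720986, with a score of 155.8 and rank 5 in the list. It covered 683 exonic bases in 14 exons. A further Col6a1 peak of DMSO Diff filled 1300 of the 1390 bases of the last exon, with a score of 143.6. In the rhein list the highest-scoring member peak was in Col6a2, at chr10:76608139-76610689, with a score of 100.2 and 350 bases in 6 exons. In DMSO Diff a peak with the same lower end ran on to 76611989, with 550 bases in 11 exons. It held 10 GGAC, and the rhein peak held 6.

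Col18a1, a basement membrane collagen whose end is released as endostatin, was the only collagen with more peaks in DMSO MCE than in DMSO Pre. It had 2, 8, 7 and 6. One DMSO MCE peak at chr10:77059351-77073752 joined 19 exons into 1025 exonic bases, the most exons of any member peak, and another joined 8 exons into 1075 bases. Of the 23 Col18a1 peaks in the 4 lists, 18 covered more than 1 exon and 20 lay in the CDS. Type IV collagen, the network of basement membranes, had peaks in Col4a1 in DMSO Pre (2) and DMSO Diff (3) and in Col4a2 in DMSO Diff only (6). Neither chain had a peak in DMSO MCE or under rhein. Col16a1, a collagen attached to fibrils, had 2, 0, 1 and 1, and Col8a1, a short-chain collagen, had 1 in DMSO Pre only. No peak was listed in Col12a1 or Col15a1.

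**Figure D2:**
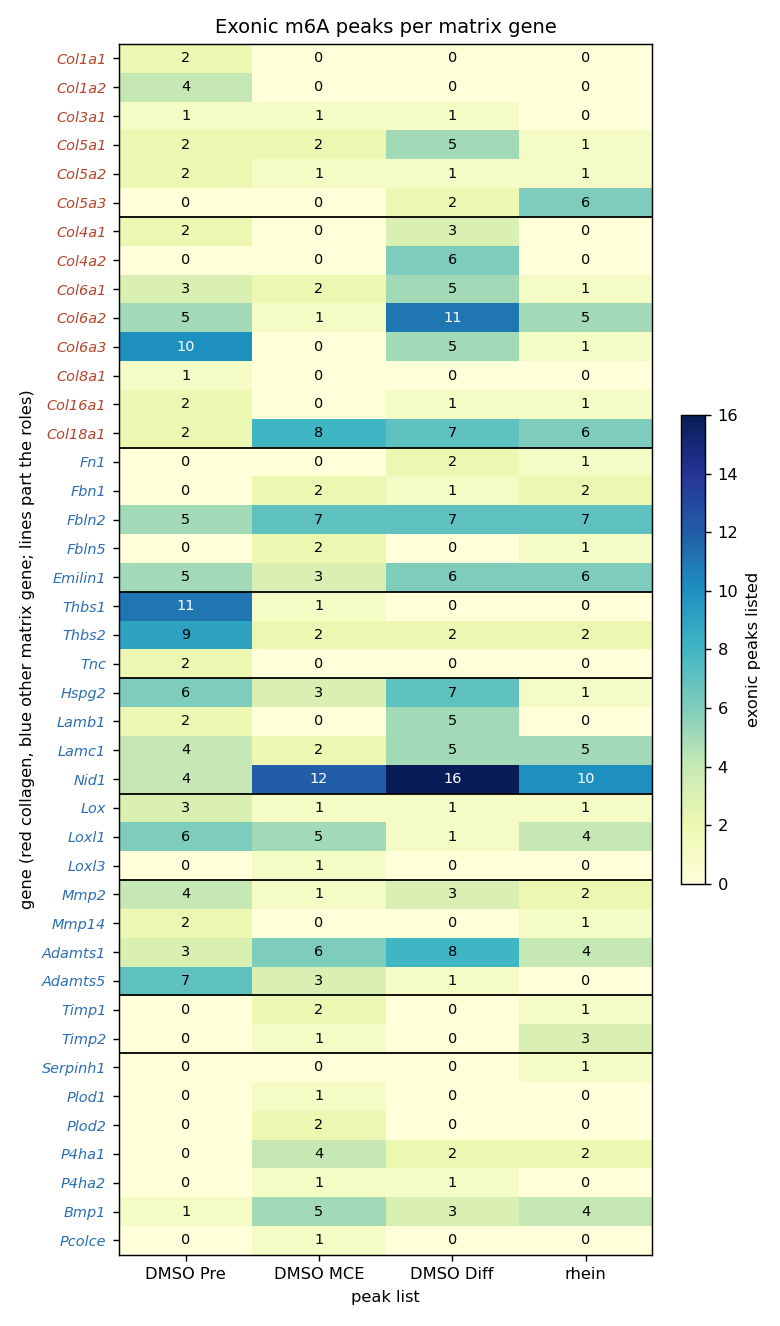
Number of exonic peaks (written in each cell and shown as colour) for the 42 of 55 members with a peak, by list, with collagens in red and other matrix genes in blue. Nid1 reached 16 in DMSO Diff, Thbs1 had 11 in DMSO Pre but none in DMSO Diff, and most genes of collagen synthesis in the lowest block had peaks in DMSO MCE but not in DMSO Pre.

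The group of fibronectin, microfibril and elastic fibre genes held 10, 14, 16 and 17 peaks, most of them in a pair of genes. Fbln2, a fibulin that binds fibronectin and laminin, had 5, 7, 7 and 7 peaks, and Emilin1, a glycoprotein of elastic fibres, had 5, 3, 6 and 6. Of the 20 Emilin1 peaks 18 were in the CDS, most of them in an exon of 1926 bases. Fbn1, the fibrillin of microfibrils, had 0, 2, 1 and 2. Fbln5, needed for elastic fibre assembly, had 0, 2, 0 and 1. Fn1, which encodes fibronectin and is a classic marker of the fibroblast state, had 0, 0, 2 and 1. Eln, Fbln1 and Fbn2 had none.

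The matricellular members had most of their peaks in DMSO Pre, nearly all of them in Thbs1 and Thbs2. These secreted proteins act on cells rather than bear load, and the group held 22, 3, 2 and 2 peaks. Of these, 5, 0, 0 and 0 passed an adjusted p-value of 0.001. Thbs1, thrombospondin 1, had 11, 1, 0 and 0. Thbs2 had 9, 2, 2 and 2. By number of peaks Thbs1 ranked 3 and Thbs2 ranked 5 among all protein-coding genes in DMSO Pre. Peaks of Thbs1 were spread over the transcript, with 8 of 12 in the CDS and 4 in the 3′ UTR. The highest-scoring, at chr2:118125186-118125260 in the 3′ UTR, had a score of 29.9, and only 2 of the 12 passed an adjusted p-value of 0.001. In Thbs2 the 5′ UTR and an exon of 557 bases had a peak in each of the 4 lists. Tnc, tenascin C, had 2 peaks in DMSO Pre only. Sparc and Postn had none. Matricellular genes examined outside the members did not have most of their peaks in DMSO Pre. Tnxb had 1, 5, 0 and 4 peaks, Spp1 0, 1, 2 and 0, Igfbp7 0, 2, 0 and 0 and Ccn1 0, 1, 0 and 0, and the others had none.

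The basement membrane glycoproteins had most peaks in DMSO Diff, with 16, 17, 33 and 16. Nid1, which links laminin to type IV collagen, had 4, 12, 16 and 10 and was the member with most peaks in DMSO MCE, DMSO Diff and the rhein list. It ranked 2 among all protein-coding genes in DMSO MCE and 4 in DMSO Diff and under rhein. Its 42 peaks were divided between the CDS (24) and the 3′ UTR (16), and 17 covered more than 1 exon. Lamc1, the laminin gamma 1 chain, had 4, 2, 5 and 5 peaks, and the last coding stretch at chr1:153221447-153221696 was inside a peak in each list. Lamb1, its beta 1 partner, had 2, 0, 5 and 0. Hspg2, which encodes perlecan, had 6, 3, 7 and 1. Nid2 had none.

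**Figure D3:**
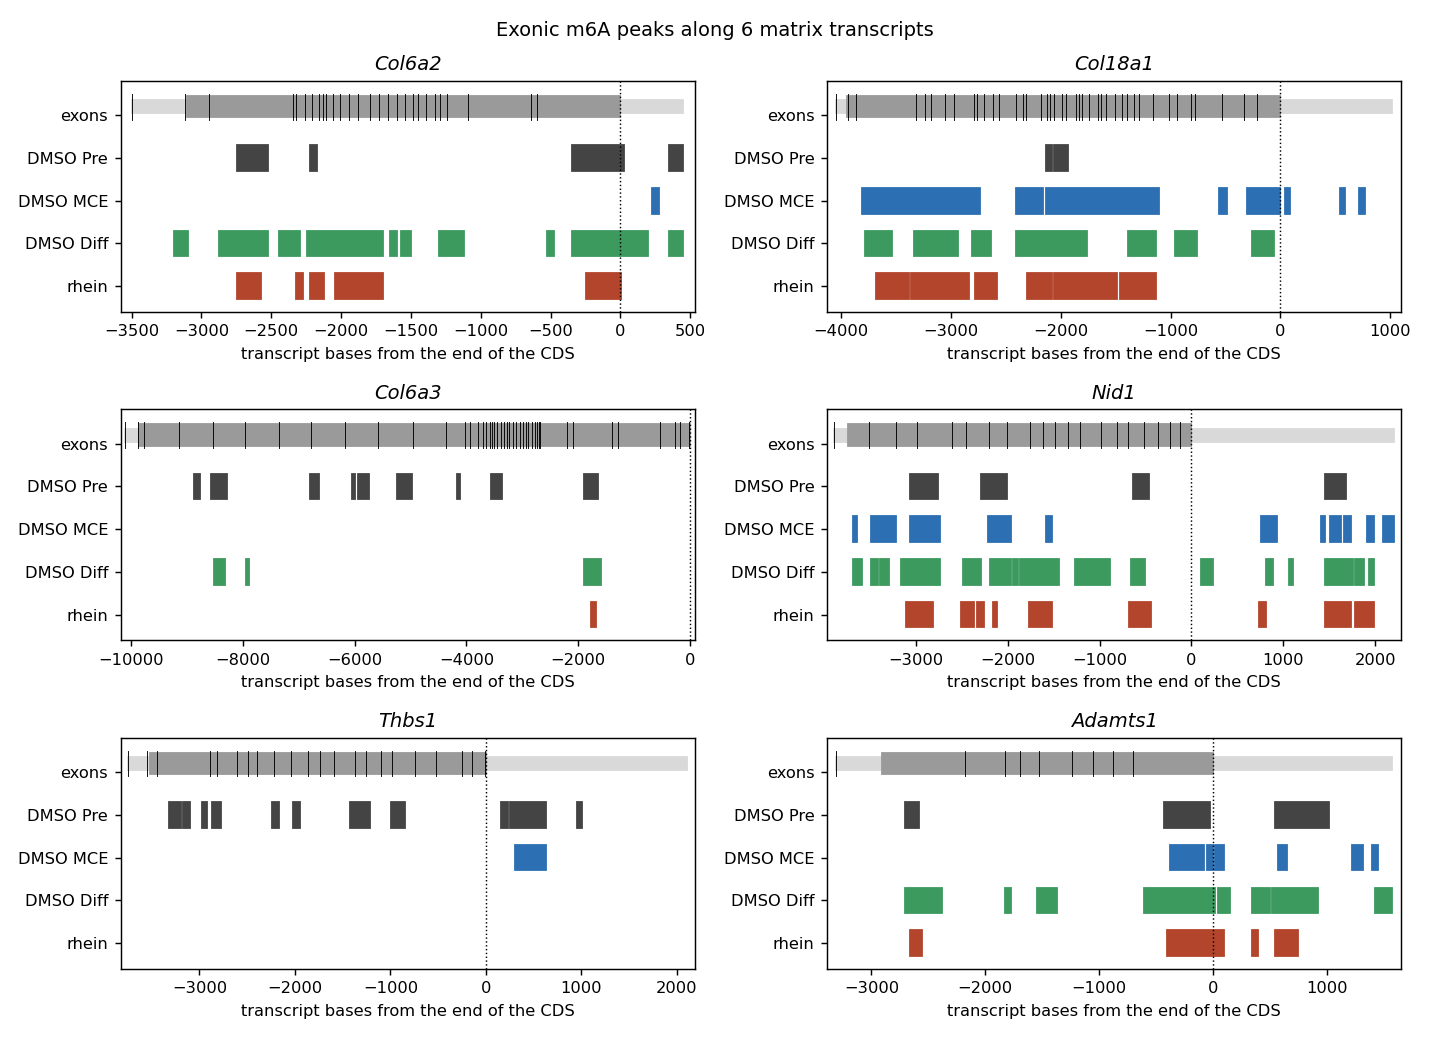
Peaks of the 4 distinct lists (coloured bars) along 6 transcripts, in bases from the end of the CDS (dotted line), with the CDS as the thick grey bar and exon starts as vertical strokes. Of 136 peaks 129 are drawn, the others lying outside the transcript shown. Bars in Col18a1 and Col6a2 run across many exons, Nid1 has bars in the CDS and the 3′ UTR, and the Thbs1 bars are nearly all in DMSO Pre.

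Lysyl oxidases, which crosslink collagen and elastin, held 9, 7, 2 and 5 peaks. Loxl1 had 6, 5, 1 and 4, of which 12 of 16 were in the CDS, and Lox had 3, 1, 1 and 1, of which 5 of 6 were in the 3′ UTR. Loxl3 had 1 in DMSO MCE only and Loxl2 had none. Matrix proteases held 16, 10, 12 and 7. Adamts1, which cleaves proteoglycans, had 3, 6, 8 and 4 and was among the 3 highest-scoring member peaks of every list, with best scores of 86.5, 59.7, 86.2 and 93.3. Its 21 peaks included 11 in the 3′ UTR and 10 in the CDS, and 16 were in the last exon. Adamts5, a related protease, had its most in DMSO Pre, with 7, 3, 1 and 0. Mmp2, the gelatinase of basement membrane collagen, had 4, 1, 3 and 2. Its highest score, 87.8 at chr8:92840364-92840413 in DMSO Pre, belonged to 50 bases in the exon of a noncoding isoform. Mmp14, the membrane protease that activates it, had 2, 0, 0 and 1. Mmp3 and Adamts2 had none. Of the inhibitors of metalloproteinases, Timp1 had 0, 2, 0 and 1 peaks, Timp2 had 0, 1, 0 and 3, and Timp3 had none.

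Genes of collagen synthesis and processing had most peaks at MCE, where the collagens had fewest. The group held 1, 14, 6 and 7 peaks, and 1, 6, 3 and 3 of its 8 genes had a peak. Of all protein-coding genes 6.89, 12.5, 6.69 and 7.44% had a peak. Bmp1, the procollagen C-proteinase, had 1, 5, 3 and 4. P4ha1, a catalytic chain of the prolyl hydroxylase, had 0, 4, 2 and 2, and P4ha2 had 0, 1, 1 and 0. The lysyl hydroxylase genes Plod1 (1 peak) and Plod2 (2 peaks) and Pcolce (1 peak), the enhancer of procollagen trimming, were in DMSO MCE only. Serpinh1, the collagen chaperone of the endoplasmic reticulum, had 1 peak, under rhein only, by the rule that both ends lie in exons. A DMSO Diff peak at chr7:99353047-99353146 with a score of 6.02 overlapped the rhein peak at chr7:99352997-99353096 but had 1 end outside the exon. A rise at MCE was also seen in genes at large, as the whole list was longest there. Of all protein-coding genes with a peak in DMSO Pre or DMSO MCE, 65.5% had more at MCE. Reduced to equal length, the group had 1, 10, 5 and 5 peaks, and with an adjusted p-value below 0.001 only 2 of its peaks were left, both in DMSO MCE. The other matrix genes together had 74, 54, 66 and 54 peaks at equal length.

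Peaks in collagens were spread over more exons than those in other matrix genes. The median exonic length pooled over the 4 lists was 125 bases in both classes, although by list it was 125, 75, 125 and 187.5 bases in collagens and 110.5, 109, 125 and 144 in the others, and among peaks with an adjusted p-value below 0.001 it was 225 and 150. The median span on the genome, introns included, was 225 bases for the 120 collagen peaks and 150 bases for the 271 others. More than 1 exon was covered by 50 collagen peaks (41.7%, 33.2 to 50.6) and by 62 others (22.9%, 18.3 to 28.2), and at least 3 exons by 32 (26.7%) and 16 (5.90%). By list the shares with more than 1 exon were 27.8, 33.3, 46.8 and 59.1% in collagens and 20.3, 23.5, 29.6 and 17.2% in the others. Among all placed peaks the share with more than 1 exon was 12.9, 12.0, 15.4 and 14.5% in the 4 lists. In the pooled shares a site found in several lists counts more than once. Peaks of 1 gene share its exons, so they are not independent, and Col18a1 gave 18 and Col6a2 gave 10 of the 50 collagen peaks with more than 1 exon. The exons of both classes also differed, and the part of this in the spread of peaks over exons was not tested. Collagens had a median of 51 exons per gene and a median exon of 63 bases, against 16.5 exons and 137.5 bases for the other matrix genes. Of 795 inner coding exons of collagens 513 (64.5%) had a length that is a multiple of 9, the coding length of 1 Gly-X-Y repeat, and 215 were of exactly 54 bases. In the other matrix genes these were 149 of 698 (21.3%) and 5. The peaks kept the caller's 25-base step on the spliced transcript. Among the 112 member peaks over more than 1 exon, 109 had an exonic length that was a multiple of 25 bases and 5 had such a span.

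**Figure D4:**
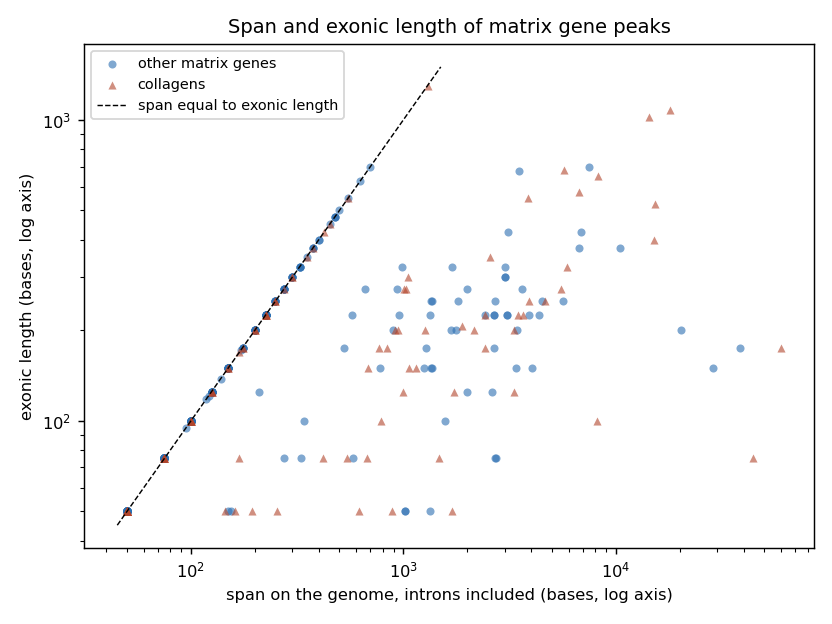
Span on the genome (x, bases, log axis) against exonic length (y, bases, log axis) of the 391 member peaks of the 4 distinct lists, with collagens as red triangles and other matrix genes as blue circles. Points on the dashed line lie in 1 exon, and 50 of 120 collagen peaks and 62 of 271 others lie to the right of it.

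Pooled over the 4 lists, collagens had more peaks near the end of the CDS and in the last exon than their share of bases and fewer in short exons, and the lists differed in this. Set beside all placed peaks instead, collagen peaks were less often in the last exon and more often in short exons. Since a site found in several lists enters the pooled shares more than once, their intervals are too narrow. By midpoint, 65.8% of collagen peaks were in the CDS, 28.3% in the 3′ UTR and 3.33% in the 5′ UTR, against 59.4, 29.2 and 7.38% for the other matrix genes, and the rest were in noncoding isoforms. The CDS held 77.1% of the exonic bases of collagens and the 3′ UTR 19.0%, against 61.2 and 32.5% in the other genes. The 200 bases on either side of the CDS end held 17.5% of collagen peaks (11.7 to 25.3) beside 5.81% of their bases, and 13.3% of the others (9.75 to 17.8) beside 7.59%. The last exon held 39.2% (30.9 to 48.1) beside 23.4% of bases in collagens, and 36.9% (31.4 to 42.8) beside 33.5% in the others. Exons under 200 bases held 38.3% of collagen midpoints (30.1 to 47.3) beside 53.5% of bases, and 19.2% of the others (14.9 to 24.3) beside 40.3%. Midpoints within 100 bases of an exon junction made up 47.5 and 35.4%, beside 65.9 and 53.9% of bases. Of all placed peaks, the last exon held 58.4, 59.8, 59.3 and 60.5% in the 4 lists and exons under 200 bases 16.8, 14.0, 21.3 and 18.4%. The 200 bases on either side of the CDS end held 18.7, 22.1, 20.0 and 19.6% of them. Only in DMSO MCE (66.7%) was the last-exon share of collagen peaks above that of all placed peaks. By list, exons under 200 bases held 19.4, 26.7, 44.7 and 63.6% of collagen midpoints, so the rhein value (14 of 22, 43.0 to 80.3) was above the share of bases. That value rests on few genes, as Col5a3 gave 6, Col18a1 6 and Col6a2 5 of the 22 rhein peaks. The last exon held 18 of 36, 10 of 15, 14 of 47 and 5 of 22 of them, and the rhein value (22.7%) was just below its share of bases, while junctions held 27.8, 33.3, 59.6 and 63.6%. In the other matrix genes short exons held between 13.8 and 26.8% in the 4 lists, below their share of bases each time.

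The base shares count 1 transcript per gene, the longest coding one, over all members including the 13 without a peak. That transcript has no 3′ UTR in Col18a1 and Col6a3 and has a short CDS in Bmp1, and 16 of the 120 collagen peaks and 21 of the 271 others were placed on another transcript. When bases and midpoints were both taken on the transcript with most peaks of each of the 42 genes, which left 104 and 255 peaks, short exons held 44.2% of collagen midpoints (35.1 to 53.8) beside 52.3% of bases, an interval that included the share of bases. The last exon then held 32.7% (24.4 to 42.2) beside 23.9%, and the 200 bases around the CDS end 16.3% (10.5 to 24.6) beside 6.05%. In the other matrix genes short exons held 19.2% (14.9 to 24.5) beside 38.8%.

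**Figure D5:**
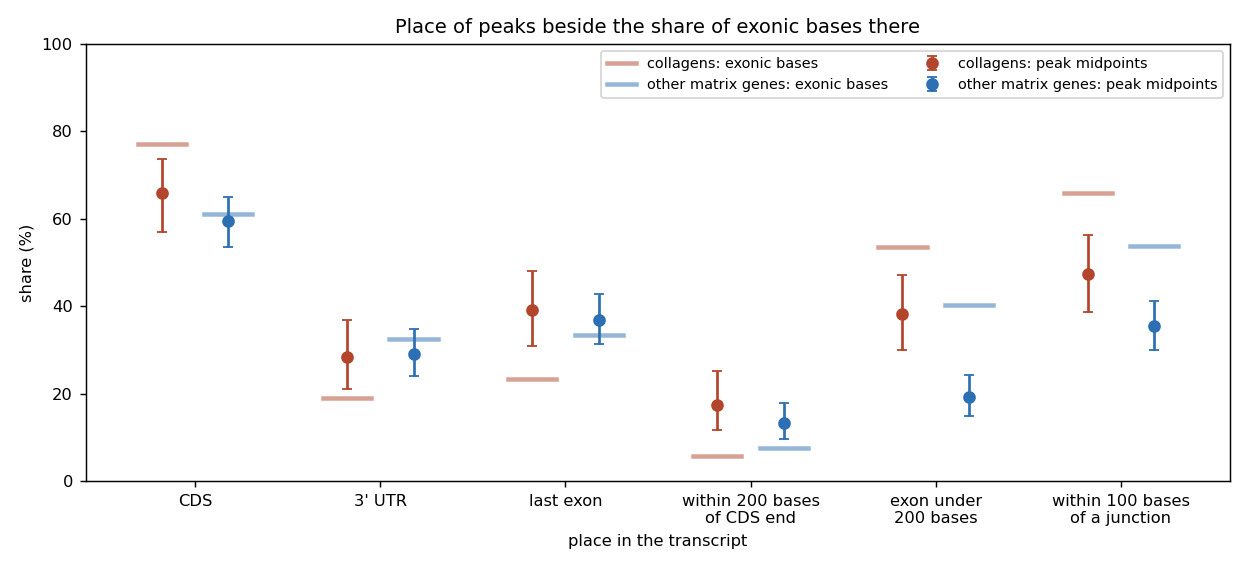
Share of peak midpoints (points with 95% Wilson intervals, %) and of exonic bases (horizontal bars, %) at 6 places of the transcript, for collagens (red) and other matrix genes (blue), pooled over the 4 distinct lists. The pooled points for short exons and junctions lie below the bars in both classes and those within 200 bases of the CDS end lie above, while in the rhein list alone the collagen value for short exons was 63.6%, above its bar.

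Member peaks recurred between lists to differing extents. Of the 110 peaks of DMSO Pre, 29.1% (21.4 to 38.2) shared exonic bases with a peak of DMSO MCE, beside 44.8% of all peaks of DMSO Pre. In the other direction the percentage was 38.6 (28.8 to 49.3) for members and 24.8 for all peaks of DMSO MCE. Of the DMSO MCE member peaks 51.8% (41.2 to 62.2) recurred in DMSO Diff, beside 26.0% of all, and of the DMSO Diff member peaks 37.3% (29.1 to 46.3) recurred in DMSO MCE, beside 45.8%. Found again in DMSO MCE were 6 of 36 collagen peaks of DMSO Pre (16.7%, 7.87 to 31.9) against 26 of 74 for the other matrix genes (35.1%, 25.2 to 46.5), and 10 of 47 collagen peaks of DMSO Diff (21.3%, 12.0 to 34.9) against 34 of 71 (47.9%, 36.7 to 59.3). DMSO MCE held 15 collagen peaks against 68 in the others, which limits how many collagen peaks could be found again there. The collagen shares were not lower in every direction. Of the 15 collagen peaks of DMSO MCE 6 recurred in DMSO Pre and 9 in DMSO Diff, against 26 and 34 of 68 in the others. Of the DMSO Pre peaks 47.2% of those in collagens and 35.1% of the others recurred in DMSO Diff. DMSO Pre and DMSO Diff had 39.1 and 36.4% of their member peaks in common, beside 38.2 and 36.1% of all.

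The member peaks listed under rhein overlapped both DMSO lists. Both shares were taken on nearly the same rhein peaks, so their separate intervals do not compare them. Of the 80 rhein MCE member peaks, 55.0% (44.1 to 65.4) shared bases with DMSO MCE, beside 53.3% of all peaks. Of the 79 rhein Diff member peaks, 63.3% (52.3 to 73.1) shared bases with DMSO Diff, beside 37.6% of all. In the other direction 51.8% of the DMSO MCE and 41.5% of the DMSO Diff member peaks were found under rhein, beside 32.0 and 40.1% of all. Among the 22 rhein peaks of collagens, 8 overlapped a DMSO MCE peak (36.4%, 19.7 to 57.0) and 16 overlapped a DMSO Diff peak (72.7%, 51.8 to 86.8). DMSO MCE held 15 collagen peaks and DMSO Diff 47, and the shares make no allowance for this. Since both comparisons rest on 1 rhein list in practice, they say nothing about a stage within rhein treatment.

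The gene symbol in the lists was assigned by the annotation step of the authors and need not be that of the gene whose exon holds the peak. It differed from the exonic gene at some members. Rows with a member symbol numbered 112, 81, 113 and 77 in the 4 lists, of which 105, 76, 107 and 71 lay in exons of that member. In addition, 5, 7, 11 and 9 exonic member peaks carried another symbol. Col6a2 peaks of the last exon were listed under Ftcd, P4ha1 peaks of the 3′ UTR under Pla2g12b and 2 of the 6 Col5a3 peaks of the rhein list under Olfm2. Some Fbn1 and Timp2 peaks were listed under Dut and Usp36, and some Hspg2 peaks under Mir7018. Tnc was named for 3 peaks on the opposite strand in DMSO Pre and in the rhein list, 2 of them in exons of 8030451A03Rik. Those named Tnc under rhein were therefore not peaks of Tnc, which had 0 there. Symbol and exonic counts also differed by 2 or more in some list at Loxl3, Mmp14 and Serpinh1.

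A list of 59 further matrix genes outside the members, among them proteoglycans and enzymes, gave lower shares. Peaks were listed in 8, 13, 11 and 7 of them, which is 13.6, 22.0, 18.6 and 11.9%, with 20, 33, 43 and 28 peaks. Versican (Vcan), a large proteoglycan cleaved by Adamts1, gave 8, 9, 19 and 12 of these, and decorin (Dcn), which binds collagen fibrils, gave 3, 3, 3 and 2.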

How the data were processed

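MeRIP-seq libraries of 3T3-L1 cells were processed by the authors, per the study's methods and the submitters' processing notes. Reads were trimmed (Trim Galore 0.6.5), aligned to mm10 (HISAT2 2.1.0), cleared of duplicates (Picard 2.23.5), kept at a mapping quality of 30 or more (SAMtools 1.9), called with exomePeak2 and annotated with ChIPseeker 1.26. The exomePeak2 version and the libraries behind each call are not given in the sources used here. The deposited column headed as a log2 fold change was treated as a score, since its values cannot be fold changes. It was taken as a negative log2 of the adjusted p-value from its lowest values alone, which would then stand for 0.0500 to 0.0549. Width is the deposited span with introns.

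Peaks were placed on GENCODE M21 transcripts, coding before noncoding and then the longest, with Python 3.11.15, pandas 2.3.3 and pysam 0.24.0. The placement was tested on simulated peaks. An adjusted p-value of 0.001 was a score above 9.97. Other cut-offs, placements, transcripts, overlaps and equal list lengths were tried. The 55 members and the gene lists were chosen with earlier results of these data known. Genes named by rule were those in all 4 or only 1 distinct list or in none, the 5 with most peaks in a list, those of the 3 highest scores per list, those whose symbol count differed by 2 or more and those that differed between the rhein lists. Col3a1, Col4a1, Col16a1, Fn1, Fbln5, Lamb1, Adamts5, Timp1, P4ha2, Vcan and Dcn were named after their values were seen, so that every member with a peak is accounted for. Tnxb, Spp1, Igfbp7 and Ccn1, outside the members, were also named after their values were seen.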

Additional observations from a re-analysis of the deposited data

Results flagged for a closer look

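For the following genes the count of peaks under rhein minus that under DMSO had opposite signs at MCE and at Diff, and the difference was not tested. Both comparisons use nearly the same rhein list, so they turn on the DMSO lists. Collagen peaks as a group differed by 7 at MCE and by -25 at Diff. Col6a2 differed by 4 at MCE and by -6 at Diff, Col6a3 by 1 and by -4, and Fn1 by 1 and by -1. Mmp2 differed by 1 at MCE and by -2 at Diff. In the opposite sense Loxl1 differed by -1 at MCE and by 3 at Diff, and Fbln5, Timp1 and Bmp1 each by -1 and by 1.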

How the results depend on the processing

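No paired analysis was possible because each condition had 1 precipitated and 1 input library and no result came from a test. Keeping only peaks with an adjusted p-value below 0.001 left 43, 32, 45 and 31 member peaks in DMSO Pre, DMSO MCE, DMSO Diff and the rhein list, of which 18, 7, 22 and 10 were in collagens and 25, 25, 23 and 21 in the other matrix genes. Members with a peak were then 19, 14, 16 and 14 in the same order. At that threshold 75.4% of collagen peaks were in the CDS and 19.3% in the 3′ UTR, and 17.0% of the other genes' peaks covered more than 1 exon. In 100-base windows around the midpoint 53.3% of collagen peaks held GGAC. The median exonic length of collagen peaks, 125 bases, was 225 at that threshold and 225 when introns were included, against 150 and 150 for the other genes. Alternatives of placement, gene symbol, list length, transcript and overlap were tried on the totals of all members and of both classes. The remaining totals moved by less than 1.5 times and the remaining shares tried stayed within their intervals. Counts of smaller groups and single genes moved more in places. Peaks of the collagens outside the fibrillar types in DMSO MCE went from 11 to 7 at equal list length. Col6a2 in DMSO Pre went from 5 to 2 by gene symbol. Midpoints and bases on the transcript with most peaks were compared after seeing the data, with 72.1% of collagen peaks in the CDS and 26 of 104 in the 3′ UTR. Peak numbers depend on depth and mRNA amount, neither of which the lists give, and 1 library pair per condition gives no spread between cultures.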
